A study of Mus musculus with 5 samples.

Results

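A set of 10 genes, called members below, stands for the epithelial-mesenchymal transition (EMT) and for the switch between cadherins that goes with it: Snai1, Snai2, Twist1, Twist2, Zeb1, Zeb2, Prrx1, Vim, Cdh1 and Cdh2. The genes were chosen by symbol, each matched to 1 Ensembl gene ID, and make up 10 of the 51912 gene IDs in the deposited tables. Total RNA was sequenced from tissue labelled as mouse dorsolateral prostate, with 1 library per sample. The 3 Ghr deletion libraries came from Ghrflox/flox males that also carried ROSA26Cre-ERT2+/0 and SV40 C3(1) T-antigen+/0, in which tamoxifen activates a Cre recombinase made from the widely expressed ROSA26 locus and removes the floxed growth hormone receptor gene. The 2 tamoxifen control libraries came from Ghrflox/flox males with SV40 C3(1) T-antigen+/0 and no Cre listed. All mice thus carried the floxed Ghr alleles and the T-antigen transgene, which drives tumour formation in the prostate epithelium, were 7 months old, and received 250 mg/kg tamoxifen daily for 5 days, with tissue taken 1 month after the last dose. The Cre and the loss of Ghr cannot be told apart in this design. The submitters call the samples biological replicates.

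In an EMT, epithelial cells lose their cell-to-cell junctions and take on traits of migrating mesenchymal cells. Zinc-finger repressors (the Snai and Zeb genes), basic helix-loop-helix factors (the Twist genes) and the homeobox factor Prrx1 drive the change, in large part by silencing Cdh1, which encodes E-cadherin, while vimentin (Vim) and N-cadherin (Cdh2) rise. Several of these genes are also made all the time by fibroblasts, smooth muscle, vessels or macrophages, so that in whole tissue their RNA also reflects the makeup of the sample. The microRNAs of the miR-200 family hold Zeb1 and Zeb2 down in epithelial cells, and the Zeb proteins in turn repress the miR-200 loci.

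The miR-200 family is shown first because matches to its 2 seeds set Zeb1 and Zeb2 apart from the other members. The mature sequences, from RefSeq (GRCm38.p6), carry their seed, bases 2 to 8, in capitals.
mmu-miR-200a-3p: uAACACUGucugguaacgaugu
mmu-miR-141-3p: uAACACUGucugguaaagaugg
mmu-miR-200b-3p: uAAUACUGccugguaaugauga
mmu-miR-200c-3p: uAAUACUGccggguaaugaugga
mmu-miR-429-3p: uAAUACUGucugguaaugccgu
The first 2 share the seed AACACUG and the other 3 share AAUACUG. The seeds pair with CAGTGTT and CAGTATT in a target. In GENCODE transcripts of GRCm38, read on the coding strand only, the 3′ untranslated region (UTR) of Zeb1 (ENSMUST00000025081.12, 2401 bases) held 9 such matches and that of Zeb2 (ENSMUST00000028229.12, 1450 bases) held 8. Snai2 held 2, Snai1 held 1, and Twist1, Twist2, Prrx1, Vim, Cdh1 and Cdh2 held none in the transcript read for each. Among 8942 coding transcripts, 1 per gene (the one with the longest coding sequence), with a 3′ UTR of at least 1000 bases, the first 1000 bases held CAGTATT in 10.4%, CAGTGTT in 13.4% and either in 22%. In that window Zeb1 held 5 matches and Zeb2 held 7, and these were the 2 transcripts of the 8942 with 5 or more. A match is a run of letters and not a measured site.

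The 8 stretches of Zeb2 are shown because they carry this pattern, each with its match in capitals, on the minus strand of chromosome 2.
Zeb2 match 1, chr2:44988357-44988378: gcaaaaattttgtaCAGTGTTa
Zeb2 match 2, chr2:44988173-44988194: gcactaccatacatCAGTATTt
Zeb2 match 3, chr2:44988108-44988129: gcactacagtgcatCAGTATTa
Zeb2 match 4, chr2:44987825-44987846: gtgccatccttgtaCAGTGTTc
Zeb2 match 5, chr2:44987784-44987805: ctttgcaccagcttCAGTGTTa
Zeb2 match 6, chr2:44987746-44987767: tgaagcacccgtgtCAGTATTa
Zeb2 match 7, chr2:44987661-44987682: ttcattaattttgtCAGTATTa
Zeb2 match 8, chr2:44987527-44987548: catactgtagtgtaCAGTATTa
Of these, 5 are matches to the miR-200b, miR-200c and miR-429 seed and 3 to the miR-200a and miR-141 seed. The microRNAs themselves could not be read here: of the 7 miR-200 and miR-205 loci looked for, 6 were listed, and all 6 had a count of 0 in every library.

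The libraries held 13812454 to 47656212 expected counts, the estimated read counts of the RSEM program. Levels below are in CPM, read counts divided by a library size that was adjusted with TMM, a scaling that assumes most genes do not change. Its factors ran between 0.491 in control replicate 1 and 1.61 in deletion replicate 3, and the 50 most abundant genes took 22.7% to 74.7% of a library. Ghr itself had 8.13, 20.9 and 12.1 CPM in the deletion libraries and 14.4 and 31.3 CPM in the controls; the groups overlapped, and a gene-level count is a weak check on the removal of part of a gene. The prostate label was checked against 7 prostate genes. Pbsn, the probasin secreted by prostate epithelium, had 0.140, 0.251 and 0.0557 CPM in the deletion libraries, against 17.6 and 0.0484 CPM in the controls, so that this defining marker was close to 0 in 4 of 5 libraries. Of the 7 genes, 6 were highest in control replicate 1. Fkbp5, an androgen-responsive gene that other tissues also make, was the exception, with 169, 132 and 40.6 CPM after deletion and 121 and 31.7 CPM in the controls. The 9 seminal vesicle secretory genes summed to 274346, 341370 and 8847 CPM in the deletion libraries and 725163 and 18567 CPM in the controls. These sums mix unlike genes. Of the 9, 6 were lower without overlap after deletion (10.2% of all genes were), and DESeq2 called 6 (0.892% of all genes). Svs1 had 6.20, 0.0626 and 9.63 CPM after deletion and 78234 and 171 CPM in the controls. By point estimate 2 of the 9 were higher, among them Svs2, at 191558, 270169 and 1753 CPM against 193471 and 2213 CPM. The libraries therefore differed widely in the level of these secretory genes, and the part of this difference in the results on the 10 genes was not tested. In whole tissue, fewer cells of a type and less RNA per cell cannot be told apart.

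No member passed the test across all genes. Of the 10 members, 9 passed the filter on low counts and 0 were called by edgeR's quasi-likelihood test at a Benjamini-Hochberg adjusted p under 0.05, where the smallest member value was 0.991 (Vim) and the highest 0.998. The same test called 0% of all 18615 genes tested, while 915 genes had an unadjusted p under 0.05. DESeq2 called 0 members and 0.892% of all genes. By point estimate 6 of the 9 were lower and 3 higher after Ghr deletion, and the median of the log2 fold changes was -0.40 for the members tested and 0.0045 for all genes. That median rested on single libraries: it was -0.03 without deletion replicate 2 and 0.42 without control replicate 2. On log2(TPM + 1) the median of all genes shifted to 0.54. Relative to that shift Zeb1, at 0.08, and Cdh1, at 0.81, were higher and the other 7 members lower, at -0.69 (Vim) to -0.17 (Snai2). The added 1 holds genes of low TPM near 0 on this scale, so that they cannot follow such a shift in full. Before the shift was taken off, Twist1 was at 0.11, Twist2 at 0.056 and Cdh2 at -0.018. Their place below it thus cannot be read as a lower level. Standard errors of the members' log2 fold changes ran from 0.42 to 1.10, and 8 of the 9 intervals included 0.

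**Figure D1:**
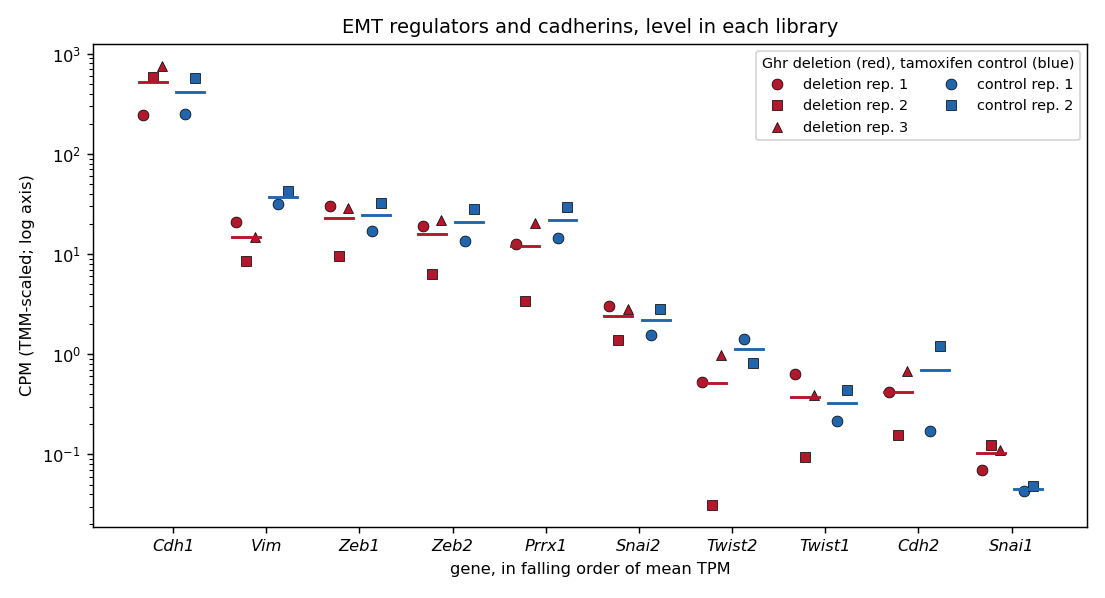
Level of each member in each library, in TMM-scaled CPM on a log axis, with genes in falling order of mean TPM; red symbols are the 3 Ghr deletion libraries and blue symbols the 2 tamoxifen controls, and each bar is a group mean. The red squares, deletion replicate 2, are the lowest of 5 libraries for 8 of the 10 genes, and all 3 red points lie below both blue points for Vim alone.

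Per unit of transcript length the members kept a fixed order at the top. In deposited TPM, which corrects for length within a library, the order was Cdh1, Vim, Zeb1, Zeb2 and Prrx1 in all 5 libraries, and Cdh2 stood in place 9 in all 5. Mean TPM over the 5 libraries was 119 for Cdh1, 20.4 for Vim, 6.65 for Zeb1, 4.85 for Zeb2, 3.91 for Prrx1 and 1.20 for Snai2. Twist2 averaged 0.416 TPM, Twist1 0.224 TPM, Cdh2 0.146 TPM and Snai1 0.052 TPM. Snai2, Twist2, Twist1 and Snai1 changed places between libraries, so that their order was not resolved. The tissue thus held far more E-cadherin RNA than N-cadherin RNA. Cdh1 TPM exceeded Cdh2 TPM 614-fold, 2845-fold and 984-fold in the deletion libraries and 964-fold and 450-fold in the controls. These values are coarse: Cdh2 rested on 4 to 37 counts a library, and its deposited TPM is rounded, to 0.01 in control replicate 1. From expected counts per effective length they were 582-fold, 3069-fold and 980-fold after deletion and 1257-fold and 449-fold in the controls.

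Cdh1, on chromosome 8 at 106603351 to 106670246 (plus strand, GRCm38), encodes the adhesion protein that holds epithelial cells together. It had 244, 582 and 757 CPM in the deletion libraries, against 251 and 571 CPM in the tamoxifen controls. Each control sat beside a deletion library, the groups overlapped, and the means were 527 ± 261 CPM (SD, n = 3) and 411 ± 226 CPM (SD, n = 2). The log2 fold change was 0.36 (95% interval -1.06 to 1.78; adjusted p = 0.995 in edgeR's quasi-likelihood test with Benjamini-Hochberg adjustment). The sign turned to -0.01 without deletion replicate 3 and to -0.12 without control replicate 1. The luminal epithelium markers, which include keratins and claudins, followed the same order of libraries in part: their 9 genes summed to 1623, 3389 and 3301 CPM in the deletion libraries and 1646 and 2659 CPM in the controls.

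Cdh2, which encodes N-cadherin, lies on chromosome 18 at 16588877 to 16809246 (minus strand). It had 12, 5 and 37 counts in the deletion libraries and 4 and 25 counts in the controls, or 0.421, 0.157 and 0.687 CPM against 0.171 and 1.21 CPM. The log2 fold change of -0.68 (95% interval -3.11 to 1.75) turned to 1.29 without control replicate 2. The 2 controls thus differed more from each other than the group means did, and no direction can be read for Cdh2 at this depth.

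Vim, on chromosome 2 at 13573927 to 13582826 (plus strand), encodes the intermediate filament of mesenchymal cells. It had 20.9, 8.49 and 14.9 CPM in the deletion libraries, against 31.4 and 43.0 CPM in the controls, and was the only tested member whose groups did not overlap. Mean levels were 14.8 ± 6.22 CPM (SD, n = 3) after deletion and 37.2 ± 8.26 CPM (SD, n = 2) in the controls, or 0.397 times the control level by the fitted log2 fold change of -1.33 (SE 0.42, 95% interval -2.34 to -0.32). The unadjusted p was 0.0173 and the adjusted p 0.991 in edgeR's quasi-likelihood test with Benjamini-Hochberg adjustment, and DESeq2 gave an adjusted p of 0.305. An unadjusted p under 0.05 in the lower direction was found for 3.23% of all genes tested, and for 1.69% in the higher direction, where no member stood. Groups that did not overlap, with deletion lower, were found for 10.2% of all genes, against 1 of the 9 members tested. A two-sided exact permutation test on log2 CPM gave p = 0.2 for Vim, and 3 against 2 libraries cannot give less than 0.1. The difference had the same sign in all 13 alternative settings, with log2 fold changes of -1.65 to -0.15, and its unadjusted p was 0.0895 without control replicate 2 and 0.904 on log2(TPM + 1). In TPM itself the groups overlapped, at 11.78, 5.12 and 33.91 TPM in the deletion libraries and 3.97 and 47.38 TPM in the controls; TPM are relative to all genes of a library, the most abundant included.

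The promoter of Vim is shown because it is the one tested member whose groups separated in CPM. The start used here is that of RefSeq's promoter set (GRCm38.p6). It lies downstream of the GENCODE gene start given above, 13573927, so the stretch shown is inside the gene by GENCODE. The 150 bases before the RefSeq start, chr2:13574161-13574310 on the plus strand, read as follows, with the TATAAA run in capitals.
Vim: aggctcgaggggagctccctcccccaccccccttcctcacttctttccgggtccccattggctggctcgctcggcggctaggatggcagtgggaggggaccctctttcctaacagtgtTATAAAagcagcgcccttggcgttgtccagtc
The run TATAAA, searched on the gene's strand, began 32 bases before the start. Of the 9 promoters listed for 6 of the members, 2 held TATAAA (Vim and Twist1), as did 8.32% of all 32851 promoters from 250 bases before to 50 bases after a start. Cdh1, Snai2, Zeb1 and Cdh2 had no promoter in the set used, so that theirs were not searched.

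Marker lists of several cell types, stromal and not, were lower in the same libraries as Vim. The 10 fibroblast markers, among them collagen genes and decorin, were all lower by point estimate after deletion and summed to 262, 83.2 and 223 CPM in the deletion libraries against 349 and 548 CPM in the controls. All 9 endothelial markers were lower, with sums of 62.3, 37.3 and 59.3 CPM after deletion and 97.5 and 135 CPM in the controls. All 8 macrophage markers were lower, with sums of 51.3, 50.6 and 56.0 CPM after deletion and 75.6 and 114 CPM in the controls. All 9 T cell markers were lower as well, with sums of 8.62, 3.32 and 7.85 CPM after deletion and 21.7 and 24.0 CPM in the controls. None of these lists overlapped between the groups in its sum, and edgeR's quasi-likelihood test and DESeq2 called 0 of their genes. An unadjusted p under 0.05 was found for 4 of the fibroblast, 4 of the endothelial, 3 of the macrophage and 4 of the T cell markers, all lower, beside 3.23% of all genes in that direction. The fibroblast and T cell lists share 1 gene, Thy1. All 9 markers of cycling cells were lower with an unadjusted p under 0.05 and non-overlapping groups, their sums were 6.80, 11.6 and 5.29 CPM after deletion and 237 and 45.3 CPM in the controls, and DESeq2 called 6 of them while edgeR's quasi-likelihood test called 0. Of the 10 basal epithelium markers 9 were lower, 3 of them with an unadjusted p under 0.05 and 1 called by DESeq2, and their sums overlapped, at 136, 161 and 213 CPM after deletion and 291 and 207 CPM in the controls. The part of these cell types in the difference in Vim was not tested. Smooth muscle markers did not share the pattern: 5 of 9 were higher and 4 lower, and their sums were 5569, 1502 and 3467 CPM after deletion and 2054 and 3685 CPM in the controls. Nor was it shared by the adipocyte, skeletal muscle and nerve and Schwann cell lists. By point estimate 5 of 5, 4 of 4 and 6 of 7 of their tested markers were higher, and their sums overlapped between the groups.

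**Figure D2:**
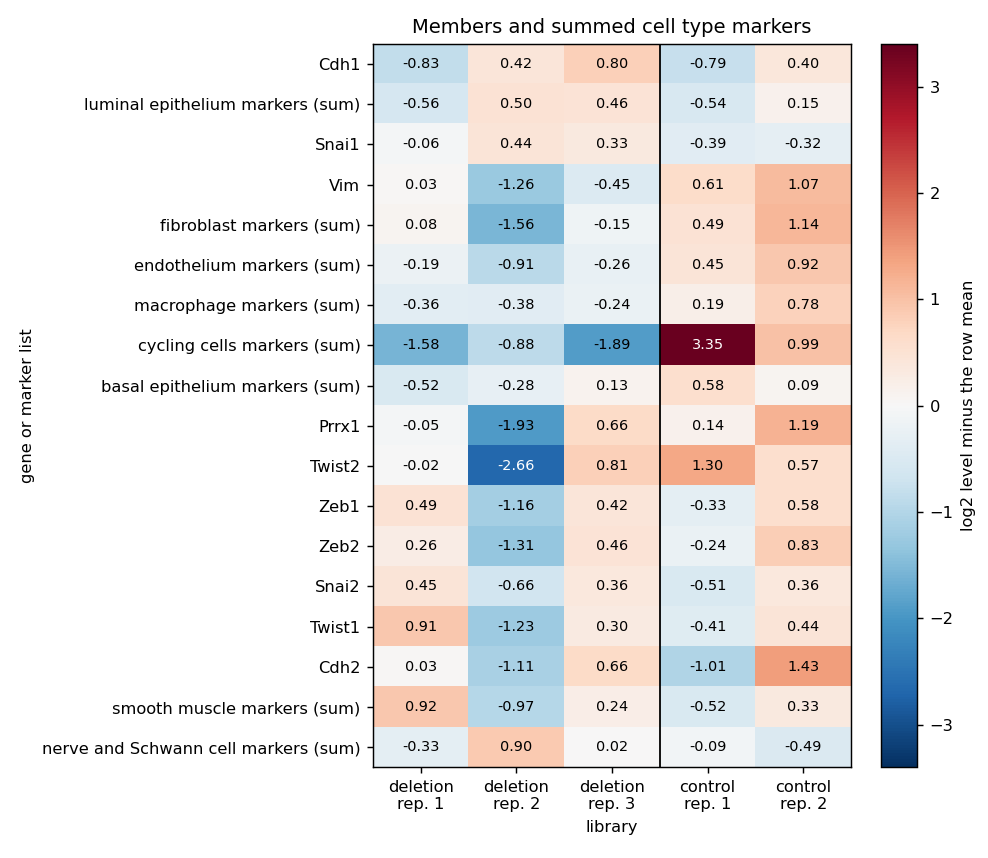
Members and summed cell type markers in each library, as log2 level minus the mean of the row over 5 libraries (members as log2 CPM with a prior count of 2, marker lists as log2 of summed CPM plus 1); deletion libraries are left of the line and controls right of it. Vim, fibroblast, endothelium, macrophage and cycling cell rows are higher in both controls than in any deletion library, while the Zeb1 row is at -1.16 in deletion replicate 2 and the Cdh1 row at -0.83 in deletion replicate 1.

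Zeb1 and Zeb2, the zinc-finger homeobox repressors, kept close to each other across libraries. Zeb1 (chromosome 18, 5591860 to 5775467, plus strand) had 30.2, 9.58 and 28.8 CPM in the deletion libraries and 17.0 and 32 CPM in the controls. Zeb2 (chromosome 2, 44983632 to 45117395, minus strand) had 19.0, 6.36 and 21.7 CPM in the deletion libraries and 13.4 and 28.1 CPM in the controls. Both were lowest in deletion replicate 2 and highest in control replicate 2, and the groups overlapped. The log2 fold change was -0.10 for Zeb1 (95% interval -1.42 to 1.22) and -0.40 for Zeb2 (95% interval -1.80 to 1.00). The sign for Zeb1 turned to 0.27 without deletion replicate 2 and 0.42 without control replicate 2, and that for Zeb2 to 0.22 without control replicate 2. Genes on the opposite strand overlap Zeb1, Zeb2, Prrx1, Twist2 and Cdh2, and since the strand setting of the counting is not given in the sources used here, reads of these partners cannot be told apart from their own. These opposite-strand partners counted at most 30 reads in a library. Other listed genes overlap Twist2 and Prrx1 on the same strand, where reads cannot be told apart by strand. Over Prrx1 these were Gm26523, with at most 27 counts in a library, and Gm37644, with at most 42.

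Prrx1, a homeobox factor of mesenchymal cells on chromosome 1 at 163245119 to 163313710 (minus strand), had 12.5, 3.38 and 20.6 CPM after deletion and 14.4 and 29.7 CPM in the controls. Its log2 fold change was -0.86 (95% interval -2.56 to 0.85) and the groups overlapped because deletion replicate 3 exceeded control replicate 1. With all libraries the unadjusted p was 0.272 in edgeR's quasi-likelihood test. Without control replicate 1 and deletion replicate 3 together, the log2 fold change of Prrx1 was -1.90. That setting drops the very libraries that made the groups overlap and leaves only control replicate 2 as a control. The larger difference thus follows from the choice of libraries. Prrx1 ranged 8.79-fold between its highest and lowest library, against 3.34-fold for Zeb1 and 3.10-fold for Cdh1.

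Snai2, the Slug repressor, is on chromosome 16 at 14705852 to 14709385 (plus strand). It had 3.05, 1.38 and 2.86 CPM in the deletion libraries and 1.54 and 2.86 CPM in the controls, with a log2 fold change of 0.15 (95% interval -1.27 to 1.56). Its sign turned in 5 of 13 alternative settings. Twist1, on chromosome 12 at 33957671 to 33959829 (plus strand), was read from 18, 3 and 21 counts after deletion and 5 and 9 counts in the controls, which came to 0.631, 0.0940 and 0.390 CPM and to 0.214 and 0.436 CPM. Its log2 fold change was 0.19 (95% interval -2.15 to 2.54). Twist2, on chromosome 1 at 91801461 to 91848028 (plus strand), had 15, 1 and 53 counts after deletion and 33 and 17 in the controls, or 0.526, 0.0313 and 0.984 CPM against 1.41 and 0.823 CPM. Its log2 fold change was -1.10 with the widest error of the set (SE 1.10, 95% interval -3.72 to 1.53), and it was -0.55 without deletion replicate 2, where 1 read was counted. Its opposite-strand partner Gm29100 had 7, 2 and 2 counts after deletion and 2 and 2 in the controls. Gm29101, which overlaps Twist2 on the same strand, had 6, 0 and 28 counts after deletion and 17 and 8 in the controls. How far Twist2 shared reads with them was not tested. The paralogs Twist1 and Twist2 both overlapped between groups.

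Snai1, the Snail repressor, on chromosome 2 at 167538195 to 167542814 (plus strand), was near the limit of counting. It had 2, 4 and 6 counts in the deletion libraries and 1 and 1 in the controls, at 0.0701, 0.125 and 0.111 CPM against 0.0428 and 0.0484 CPM, and was left out by the low-count filter. The groups did not overlap, with deletion higher, as for 9.43% of all genes tested. The pooled counts of 12 and 2 gave a ratio of 2.31 per TMM-scaled read, with an exact 95% interval of 0.514 to 21.3 that covers counting error only. A count of 3 would be 0.0557 to 0.145 CPM in these libraries, and Snai1 exceeded 3 counts only in deletion replicates 2 and 3. It was not tested, and whether it differed was left undecided at this depth. Its promoter is shown because it was the 1 member promoter of 9 with an E-box of the kind that the Snai and Zeb proteins bind, CACCTG or CAGGTG, in capitals, on the plus strand at chr2:167538039-167538104.
Snai1: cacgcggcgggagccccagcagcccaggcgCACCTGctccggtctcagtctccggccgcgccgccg
The E-box begins 126 bases before the start, and 20.2% of all 32851 promoters held one of the 2 forms, which are the same motif on opposite strands. The promoters of Cdh1, Snai2, Zeb1 and Cdh2 were not in the set and were not searched for an E-box.

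**Figure D3:**
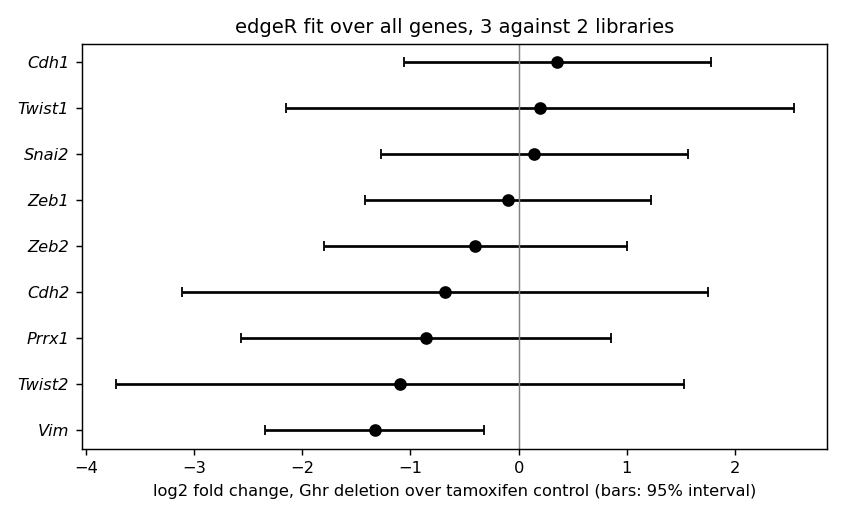
Log2 fold change of Ghr deletion over tamoxifen control for the 9 members tested, from the edgeR fit over all genes (points) with 95% intervals (bars); the vertical line is 0. Every interval but that of Vim, at -2.34 to -0.32, includes 0, and none of the 9 passed the adjusted threshold.

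Ratios within a library do not depend on the scaling between libraries, and those of mesenchymal to epithelial genes overlapped between the groups. The log2 ratio of Vim TPM to Cdh1 TPM was -1.38, -4.06 and -3.30 in the deletion libraries and -1.28 and -1.51 in the controls, a mean difference of -1.52 that came from deletion replicates 2 and 3. The log2 ratio of Cdh2 to Cdh1 was -9.26, -11.47 and -9.94 after deletion and -9.91 and -8.81 in the controls. Since Cdh2 TPM is coarsely rounded, it was also taken from expected counts per effective length. It was then -9.18, -11.58 and -9.94 after deletion and -10.30 and -8.81 in the controls. The log2 ratio of Zeb1 to Cdh1 was -2.47, -5.39 and -4.46 after deletion and -3.44 and -3.82 in the controls. No ratio to Cdh1 thus set the groups apart.

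The 3 further ratios, of Vim to other mesenchymal members, were chosen after the values had been seen and have no test. Vim to Zeb1 was 1.09, 1.33 and 1.15 on the log2 TPM scale in the deletion libraries and 2.16 and 2.31 in the controls, with a spread of 0.12 (SD, n = 3) and 0.11 (SD, n = 2) and a difference of -1.05. In linear terms Vim TPM was 2.12, 2.51 and 2.23 times Zeb1 TPM after deletion and 4.46 and 4.97 times in the controls. Vim to Zeb2 was 1.87, 1.47 and 1.72 after deletion and 2.21 and 2.56 in the controls, which also did not overlap. Vim to Prrx1 was 2.85, 2.81 and 1.88 after deletion and 2.37 and 2.72 in the controls, and overlapped. TPM rests on the effective length that RSEM assigned, and that of Vim ran between 822 and 1267 bases and that of Zeb2 between 2122 and 3944 bases. With the lowest effective length of each gene used in every library, the difference was -1.21 for Vim to Zeb1 and -0.92 for Vim to Zeb2. The spread was then wider, at 0.39 (SD, n = 3) after deletion and 0.32 (SD, n = 2) in the controls for Vim to Zeb1, and at 0.49 and 0.43 for Vim to Zeb2, and the groups of both ratios still did not overlap.

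**Figure D4:**
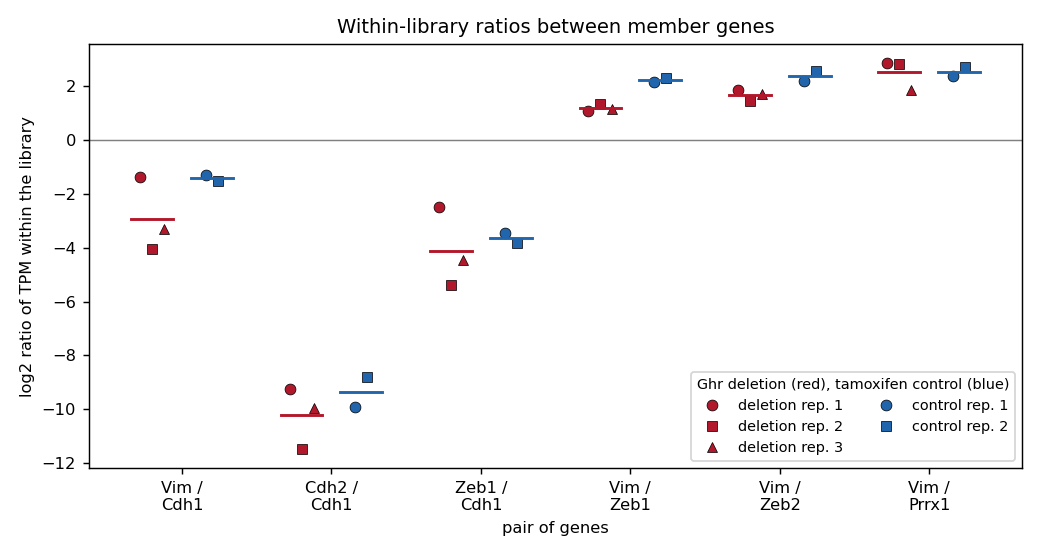
Log2 ratio of TPM between pairs of members within each library, with red for Ghr deletion on the left of each pair and blue for tamoxifen control on the right, and bars at the group means. The 3 deletion libraries lie between 1.09 and 1.33 for Vim to Zeb1, below both controls at 2.16 and 2.31, while the ratios to Cdh1 overlap.

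The genes most like 3 of the members were found by the root mean square difference of centred log2 CPM over the 5 libraries, among 12556 genes. For Cdh1 these were Epha2 (0.104), an ephrin receptor, Prdx4 (0.105), a peroxiredoxin, and Cd24a (0.113), a surface protein of luminal cells. For Vim they were Aif1l (0.093), Dpt (0.152), a fibroblast matrix protein, and Glcci1 (0.157). For Zeb1 they were Timm21 (0.074), a mitochondrial import protein, Zfp607b (0.080), a zinc-finger gene, and Cpxm2 (0.10). Among the members themselves Zeb2 was nearest to Zeb1, at 0.172, followed by Twist1 at 0.212 and Snai2 at 0.256, while Vim was at 0.654 and Cdh1 at 0.962. Of the 12556 genes, 27 were nearer to Zeb1 than Zeb2 was. All of these distances rest on the same 5 libraries, which share their differences in depth and in cell type markers.

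The genes that act around the members were read from 11 lists of 141 genes, of which 123 in 10 lists were tested. EdgeR's quasi-likelihood test and DESeq2 called 0 of the 123. At an unadjusted p under 0.05, 7 of the 123 (5.69%) were lower, against 3.23% of all genes, and 1 (0.813%) was higher, against 1.69% of all genes.

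Of the mesenchymal effectors, matrix and protease genes that an EMT turns on, 12 of 17 tested were lower by point estimate and the median log2 fold change was -0.46, beside 0.0045 over all genes. Of the list, 4 genes had an unadjusted p under 0.05. Sparc, a matrix protein, had 43.0, 19.4 and 30.9 CPM after deletion and 63.8 and 69.2 CPM in the controls (log2 fold change -1.10, SE 0.37). The collagen cross-linker Loxl2 had a log2 fold change of -1.40 and the pericyte receptor Pdgfrb one of -1.65. Sparc, Loxl2 and Pdgfrb did not overlap between groups, as was the case for 7 of the 17 in all, with deletion lower, beside 10.2% of all genes. Their adjusted p was 0.991 in edgeR's quasi-likelihood test with Benjamini-Hochberg adjustment. Fibroblasts and vessels make these genes, and the fibroblast and endothelial marker sums above were also lower after deletion; their part was not tested.

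Other intermediate filament genes had log2 fold changes with a median of -0.55 across 7 tested, led by Lmna, the nuclear lamin A and C gene, at 18.4, 12.3 and 17.2 CPM after deletion and 42.4 and 27.9 CPM in the controls (log2 fold change -1.14, SE 0.33, unadjusted p 0.0119). Synm, a filament protein of muscle, stood at 0.91 and Prph at 1.74, with overlapping groups. Among the other cadherins the median was 0.03 over 11 tested, but 1.08 once control replicate 2 was dropped and -0.94 with both control replicate 1 and deletion replicate 3 left out. Cdh5, the cadherin of endothelial cells, had 5.54, 5.73 and 5.48 CPM after deletion and 10.1 and 11.3 CPM in the controls (log2 fold change -0.93, SE 0.34), and Cdh11, a cadherin of mesenchymal cells, stood at -1.10 with an SE of 0.65.

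Other EMT transcription factors and their partners had log2 fold changes with a median of -0.22 across 12 tested. Sox9 had 11.4, 5.36 and 17.2 CPM after deletion and 26.4 and 31.9 CPM in the controls (log2 fold change -1.36, SE 0.49, unadjusted p 0.0289). Id2, an inhibitor of basic helix-loop-helix factors, stood at -0.61 and did not overlap. Of the 12, 2 did not overlap with deletion lower, beside 10.2% of all genes. In the TGF-beta pathway, which induces the Snai and Zeb genes, the median was -0.15 over 13 tested. Smad3, the signal transducer, was the 1 pathway gene with an unadjusted p under 0.05 in the higher direction (0.0193), at 44.7, 71.9 and 48.9 CPM after deletion and 28.3 and 27.8 CPM in the controls, with a log2 fold change of 0.97 (SE 0.32). The ligand gene Tgfb3 stood at -1.10 with control replicate 1 at 60.4 CPM and every other library between 12.9 and 23.0 CPM.

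The lists of the epithelial side lay near 0. The median log2 fold change was 0.08 over 19 junction and polarity genes, 0.13 over 11 cadherin-catenin and nectin genes and -0.13 over 11 epithelial-state factors such as the Grhl and Ovol genes. None of these genes had an unadjusted p under 0.05. Epcam, an epithelial adhesion gene, had 124, 232 and 364 CPM after deletion and 138 and 261 CPM in the controls, and Ocln, the tight junction protein occludin, had a log2 fold change of 0.76 (SE 0.41). Pkp3, a desmosome protein, stood at -0.94 and Grhl1 at -0.80, and neither overlapped between groups. They were the 1 such gene of 19 and the 1 of 11 in their lists with deletion lower, beside 10.2% of all genes. The corepressors that the Snai and Zeb proteins recruit had a median of 0.08 over 12 genes, with Rcor1 at -0.35 and Sin3a at 0.33, and the genes of SNAIL protein turnover one of 0.09 over 10, led by the ubiquitin ligase subunit Btrc at 0.66 (SE 0.33).

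**Figure D5:**
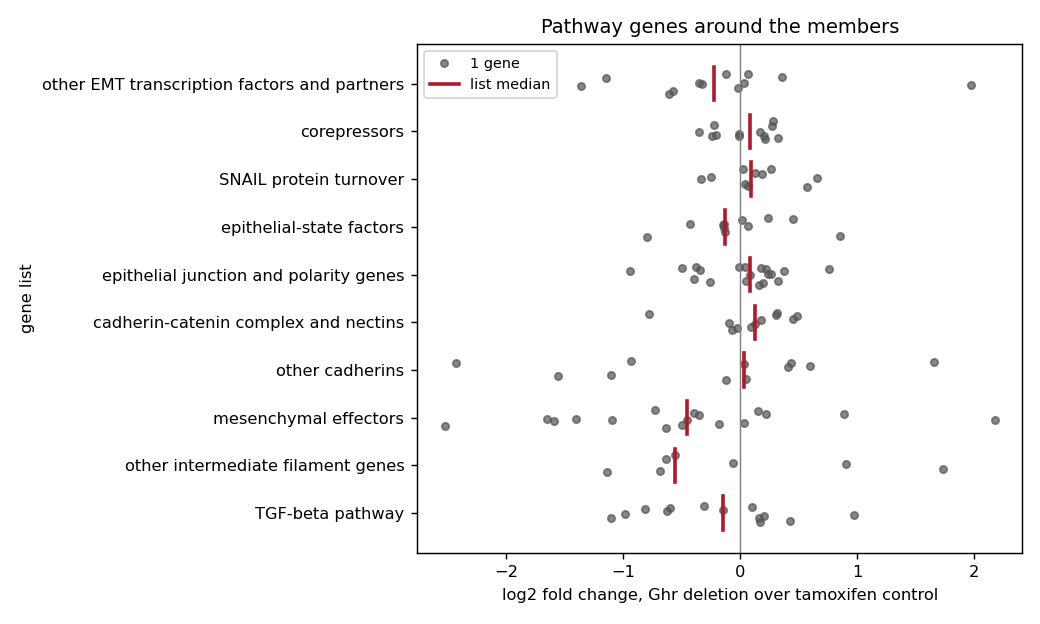
Log2 fold change of Ghr deletion over tamoxifen control for each of the 123 tested pathway genes (grey points, spread vertically for sight) in 10 lists, with the median of each list in red. The medians run from -0.55 for other intermediate filament genes to 0.13 for the cadherin-catenin complex and nectins, and 0 genes passed the adjusted threshold.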

How the data were processed

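Per the labels' protocols, RNA from flash-frozen tissue was made into TruSeq Stranded Total RNA libraries. GRCm38, RSEM 1.3.0, STAR 2.5.3a and bcl2fastq 2.20.422 are listed in the submitters' processing notes; which annotation and strand setting were used is not given in the sources used here. The authors deposited, per library, RSEM's expected counts, which are not normalized, TPM, and effective lengths in bases, per the file headers. Symbols matched 51633 of 51912 gene IDs (99.5%), and positions came from GENCODE M21.

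Expected counts were rounded to whole numbers (8.04% to 10.0% of the values were not whole). Genes were filtered with filterByExpr, which left 18615, scaled by TMM and tested across the 5 libraries in R 4.3.3 (edgeR 4.0.16, limma 3.58.1) by glmQLFit (robust) and glmQLFTest, with calls made where the Benjamini-Hochberg adjusted p was under 0.05. The procedure was tested on simulated data. It called 0 of 190 genes changed 2-fold, 44.8% of 203 changed 8-fold and 78.7% of 207 changed 32-fold. Of 55245 unchanged genes it called 27. The lack of a call for a member thus cannot decide whether it changed 2-fold. Nor can it decide on a change of 8-fold or 32-fold, since part of those genes were missed as well. Simulated counts were drawn gene by gene from means pooled over the libraries, so these shares may not hold for the real ones. CPM were computed from the counts, and log2 ratios from the deposited TPM. Intervals cover the spread between libraries, which may be technical, and intervals on counts cover counting error only. RefSeq promoters and microRNAs were matched by name. Named genes were all 10 members, Ghr, up to 4 tested genes of smallest unadjusted p in each list, and the 3 genes most alike to Cdh1, Vim and Zeb1 among those with a mean of at least 1 CPM; Epcam, Spock1 and single marker genes were added after their values were seen. Some genes that this rule names are not reported here. Members and lists were chosen with earlier results of these data known.

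Alternatives were RLE and upper-quartile scaling, no low-count filter beyond 1 count in any library, DESeq2 1.42.0, limma-voom, limma on log2(TPM + 1), a replicate block, each replicate left out, and 2 libraries left out together. The labels give no pairing beyond the number; deviations from the group means correlated at 0.131 for number 1 and -0.136 for number 2. A floor of 3 counts was used for detection.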

Additional observations from a re-analysis of the deposited data

How the results depend on the processing

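The count of genes called over all genes was 0 in the edgeR fit, 166 with DESeq2, 11 with limma on log2(TPM + 1), 8 with the replicate block, 0 to 48 with 1 library left out (2 without deletion replicate 3, 48 if control replicate 2 was dropped) and 85 with both control replicate 1 and deletion replicate 3 dropped. No member was called in any of these. The last of them leaves only control replicate 2 as a control. There the pathway gene Spock1 had a log2 fold change of 4.51, against 2.18 with all libraries. Its groups overlapped, at 28.6, 48.8 and 1.67 CPM in the deletion libraries and 9.93 and 1.69 CPM in the controls. The replicate block called no member; the samples share only a number. Vim and Prrx1 kept their sign in all 13 alternatives. Of 117 member values, 21 turned sign; the cause was not tested. With the replicate block Snai2 was at -0.032, Twist1 at -0.21 and Cdh1 at -0.0090. With control replicate 1 and deletion replicate 3 left out they were at -0.37, -0.27 and -0.47. On log2(TPM + 1) Twist2 was at 0.056, Zeb1 at 0.62 and Zeb2 at 0.33. With limma-voom Twist1 was at -0.063. With 1 library left out, Snai2 ran from -0.23 to 0.65, Twist1 ran from -0.37 to 0.78, Zeb1 ran from -0.49 to 0.42, Zeb2 ran from -0.84 to 0.22, Cdh1 ran from -0.12 to 1.06 and Cdh2 ran from -1.50 to 1.29. Of 516 values of named pathway genes, 25 turned sign. With 1 library left out, Id3 ran from -1.90 to 0.52, Suz12 ran from -0.018 to 0.41, Elf3 ran from -0.96 to 0.41, Pkp2 ran from -0.91 to 0.086, Cdh16 ran from -2.43 to 1.08, Tgfb3 ran from -1.77 to 0.18 and Smad6 ran from -1.58 to 0.041. On log2(TPM + 1), where the median of all genes was at 0.54, Id2 at 0.43, Id3 at 0.38, Rcor1 at 0.55, Fbxo45 at 0.48, Grhl1 at 0.27, Elf3 at 0.73, Pkp3 at 0.12, Pkp2 at 0.54, Nectin3 at 0.018, Cdh5 at 0.063, Lmnb2 at 0.15, Tgfb3 at 0.26 and Smad6 at 0.18 turned sign. Without control replicate 1 and deletion replicate 3, Id3 at 0.86, Pak1 at -0.39, Elf5 at -0.018, Elf3 at 0.31 and Pkp2 at 0.16 did so. Depth limits Snai1, Twist1 and Cdh2, which had 37 counts or fewer in every library. Of 130 list medians under these alternatives, 17 moved by more than the SD between replicates; 9 of them are on log2(TPM + 1), and that of the other cadherins ran from -0.94 to 1.08.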
